A study of Mus musculus with 4 samples.

Results

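The genes described are the 3 TGF-beta ligands Tgfb1, Tgfb2 and Tgfb3, the receptors Tgfbr1 and Tgfbr2, and 4 genes that the pathway is known to control, Smad7, Id1, Id2 and Id3. They were chosen by their symbols, with earlier results of these data known, and are 9 of the 49585 genes in the expression matrix. All 9 reached 1 FPKM in 1 or more libraries, as did 12669 genes in all. FPKM is the number of sequenced fragments of a gene scaled for its length and for the size of the library. Levels of different genes compare only roughly, because the length used is in most cases that of all annotated exons. Between libraries, some differences given below depend on how the libraries were scaled.

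Bulk RNA-seq was performed on 4T1-HM and 4T1-LM cells, the highly and the poorly metastatic of a pair of clones, each grown from a single cell of 4T1, a murine triple-negative breast cancer (TNBC) line. The clones were cultured for 48 h in serum-containing medium with 50 μmol/L of the iron chelator deferasirox (HM_DFX and LM_DFX) or with its solvent DMSO (HM_Ctrl and LM_Ctrl). Each of the 4 conditions is 1 library, each phenotype is represented by 1 clone, and no value below has a replicate check or a p-value. The comparison of clones describes how these clones differ. Metastatic capacity and other differences between the clones cannot be told apart in it. The comparison with DFX describes how each clone responds to the chelator, and iron levels are not part of these data.

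The 4 libraries held 14363065 to 21883855 fragments, and fragments per gene were recovered from the FPKM. Intervals in brackets are 95% limits from these fragments (exact Poisson limits for a level, Clopper-Pearson limits for a ratio of FPKM), and they reflect counting alone, with no part for how cultures vary. The epithelial genes Epcam, Cdh1, Krt8 and Krt18 summed to between 443 and 2022 FPKM, whereas 5 leukocyte markers summed to at most 0.171 FPKM and 3 endothelial markers to at most 0.188 FPKM. Of 6 fibroblast markers, 2 were at 0 in every library and the list summed to between 2.86 and 5.51 FPKM, nearly all of it Pdgfra. FPKM are relative to the whole library, so less of a transcript in each cell and fewer cells with that transcript cannot be told apart.

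TGF-beta ligands are secreted in a latent form, held in the matrix by latent TGF-beta binding proteins and released by proteases, integrins or thrombospondin. The active ligand binds the type II receptor encoded by Tgfbr2, which activates the type I receptor encoded by Tgfbr1, and this in turn phosphorylates SMAD2 and SMAD3. Smad7 is an inhibitory SMAD that is itself induced by the pathway and directs the receptors to degradation. Id1, Id2 and Id3 encode helix-loop-helix proteins without a DNA-binding region that capture the E proteins; they are best known as targets of the related BMP branch through SMAD1 and SMAD5, and TGF-beta can raise or lower them depending on the cell. In breast cancer the pathway is known both for restraining epithelial growth and for favoring invasion and spread, and Id1 and Id3 are known for their role in lung colonization.

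Under DFX, the mRNA of Tgfb3, Id1 and Id3 fell more than 2-fold in both clones, and Tgfb1 fell more than 2-fold in 4T1-HM cells. Tgfbr1 and Smad7 stayed within 1.5-fold of the control in both clones. Before treatment the clones were within 1.5-fold of each other in 6 of the 9 genes, and the gene with the largest gap was Id2, which was higher in 4T1-HM cells. A change is called here where log2 of (FPKM + 1) differs by at least 1, that is 2-fold, and the ratios of plain FPKM given beside it can be larger.

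**Figure D1:**
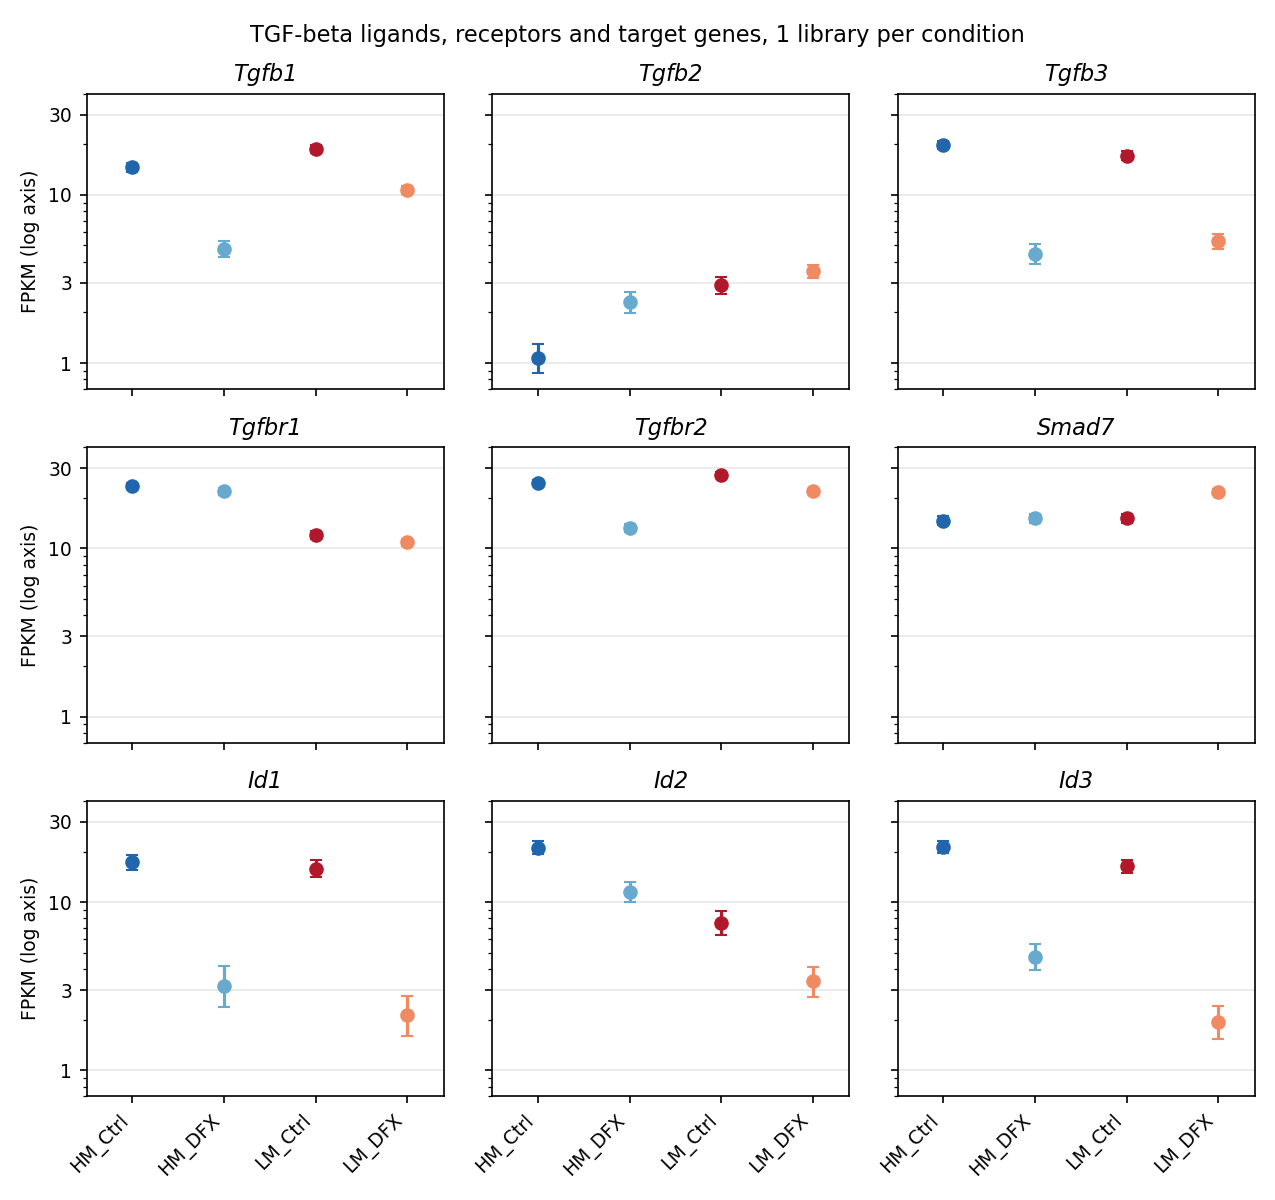
Level of each of the 9 genes in FPKM (log axis) in HM_Ctrl, HM_DFX, LM_Ctrl and LM_DFX, 1 library each; bars are 95% Poisson limits of the counted fragments and are hidden by the point where narrow. Tgfb3, Id1 and Id3 sit between 15.8 and 21.3 FPKM without DFX and between 1.94 and 5.31 FPKM with it, while Tgfbr1 separates the clones and not the treatments.

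Among the ligands, Tgfb1 (ENSMUSG00000002603, mm10 chromosome 7 from 25687002 to 25705077, plus strand) is the form most widely expressed in tumors. It measured 14.5 FPKM in HM_Ctrl (13.7-15.4), 4.75 FPKM in HM_DFX (4.26-5.28), 18.7 FPKM in LM_Ctrl (17.8-19.7) and 10.7 FPKM in LM_DFX (10.1-11.3). The 4 intervals do not overlap, and HM_DFX was the lowest library. In 4T1-HM cells Tgfb1 fell by 1.43 on the log2 scale, which is 3.06-fold in plain FPKM (2.71-3.46), and 618 of the 12669 genes fell more. In 4T1-LM cells the log2 difference was -0.75, below the 2-fold threshold, with 1.75-fold less in plain FPKM (1.62-1.89). Without DFX, HM_Ctrl differed from LM_Ctrl by -0.34, and with DFX HM_DFX was lower than LM_DFX by -1.03 on the log2 scale. This last call was lost when the libraries were rescaled, to -0.96 with median-ratio scaling and -0.99 with scaling to the 75th percentile.

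Tgfb3 (ENSMUSG00000021253, chromosome 12 from 86056744 to 86079041, minus strand), a ligand known from palate and mammary gland development, was above Tgfb1 in HM_Ctrl and overlapped it within counting error in LM_Ctrl. Its level was 19.7 FPKM in HM_Ctrl, 4.46 FPKM in HM_DFX, 17.1 FPKM in LM_Ctrl and 5.31 FPKM in LM_DFX. Both DFX libraries lay far below both controls. The log2 change was -1.92 in 4T1-HM cells, 4.42-fold lower in plain FPKM (3.82-5.13), and -1.52 in 4T1-LM cells, 3.22-fold lower (2.86-3.64). Of Tgfb3 exon bases, 7.60% are shared with Gm48008 and 4.82% with Gm37804 on the opposite strand, and the strand setting of the counting is not given in the sources used here, so a small part of these fragments could belong to those genes.

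Tgfb2 (ENSMUSG00000039239, chromosome 1 from 186622792 to 186705989, minus strand) was the ligand with the lowest level in every library. It was counted at 1.07 FPKM in HM_Ctrl (104 fragments), 2.30 FPKM in HM_DFX (191 fragments), 2.90 FPKM in LM_Ctrl (264 fragments) and 3.50 FPKM in LM_DFX (444 fragments). HM_Ctrl stood below the other 3 libraries, and in both clones the value with DFX was above the control. No difference reached 2-fold on the log2 scale of FPKM + 1, where it was 0.67 for DFX in 4T1-HM cells, 0.21 for DFX in 4T1-LM cells and -0.91 between the untreated clones. The plain FPKM ratio was 2.14 (1.68-2.75) for DFX in 4T1-HM cells, and with a pseudocount of 0.1 the log2 values became 1.03 and, between the clones, -1.35.

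The sum of the 3 ligands was 35.3 FPKM in HM_Ctrl, 11.5 FPKM in HM_DFX, 38.7 FPKM in LM_Ctrl and 19.5 FPKM in LM_DFX. Its composition differed as well. Tgfb3 made up 55.8% of the sum in HM_Ctrl and 44.2% in LM_Ctrl, against 38.8% in HM_DFX and 27.2% in LM_DFX. The share of Tgfb2 went from 3.04% to 19.9% with DFX in 4T1-HM cells and from 7.48% to 17.9% in 4T1-LM cells. Tgfb1 kept 41.1% and 41.3% in 4T1-HM cells and took 48.3% and 54.9% in 4T1-LM cells.

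**Figure D2:**
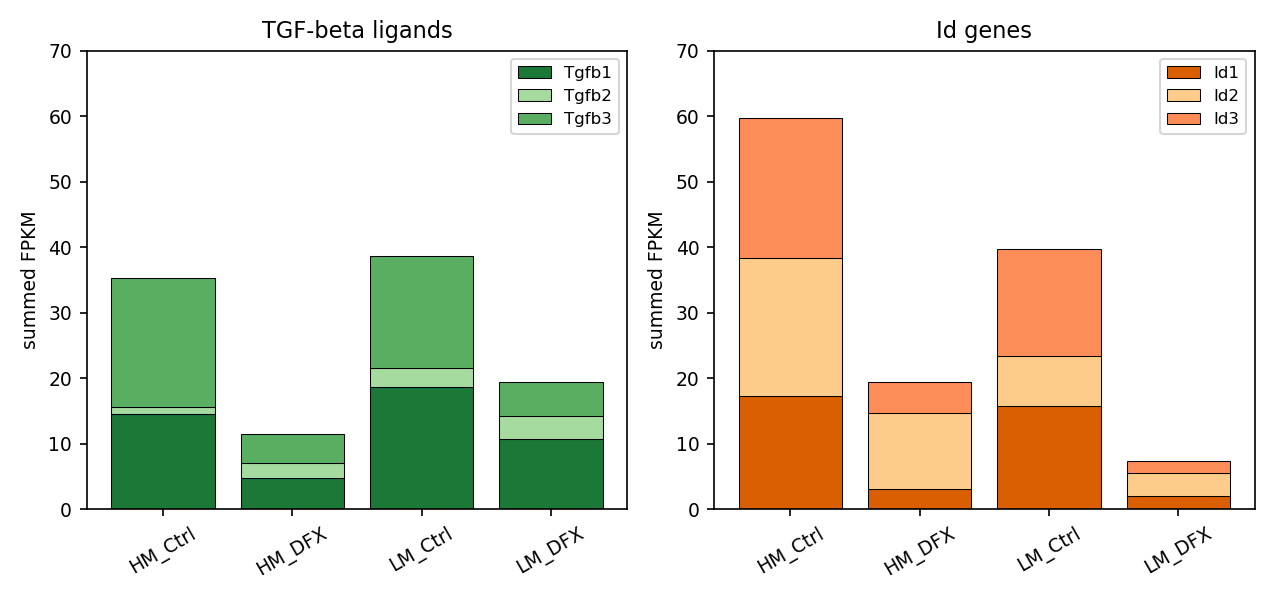
Stacked bars of FPKM, 1 library per bar and no error bars, for the 3 TGF-beta ligands (left) and for Id1, Id2 and Id3 (right). The ligand bars drop from 35.3 to 11.5 FPKM in 4T1-HM cells and from 38.7 to 19.5 FPKM in 4T1-LM cells, and the Id bars drop from 59.7 to 19.5 FPKM and from 39.7 to 7.45 FPKM.

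Upstream sequence of the ligand genes is shown for Tgfb1, which fell in 4T1-HM cells, beside Tgfb2, which did not, with letters taken from RefSeq on GRCm38.p6. Capitals mark CAGAC, the core that SMAD3 and SMAD4 bind, or GGCGCC, which BMP SMADs bind, on either strand, and the stretch printed for Tgfb2 ends where annotated exons begin.
Tgfb1 (chr7:25686752-25687001, plus strand): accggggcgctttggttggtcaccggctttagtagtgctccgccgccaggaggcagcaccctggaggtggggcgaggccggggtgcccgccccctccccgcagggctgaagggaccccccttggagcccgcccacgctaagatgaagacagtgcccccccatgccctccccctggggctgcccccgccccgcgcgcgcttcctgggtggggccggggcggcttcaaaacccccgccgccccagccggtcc
Tgfb2 (chr1:186706157-186706239, minus strand): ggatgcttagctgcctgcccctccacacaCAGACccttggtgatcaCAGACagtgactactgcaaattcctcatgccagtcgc
In the 250 bases upstream of the start, Tgfb1 held neither motif and Tgfb2 held 2 copies of CAGAC. Of 32841 upstream windows of the same length, 42.2% held CAGAC and 9.59% held GGCGCC. The hypoxia-response core ACGTG, which HIF binds, had 2 matches for Tgfb2 and 0 for Tgfb1, against a share of 16.6% of all windows. Both strands were searched, so a CACGTG counts as 2 matches, and the Tgfb2 window held 1 CANNTG, which includes CACGTG. The counts do not tell whether the 2 matches are separate sites, and neither lies within the printed stretch. GC content was 75.2% for Tgfb1 and 53.6% for Tgfb2, and the median of all windows was 52.4%. These matches describe letters, and binding was not measured.

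The receptors had unlike patterns. Tgfbr1 (ENSMUSG00000007613, chromosome 4 from 47353222 to 47414931, plus strand), the type I receptor kinase, had 23.5 FPKM in HM_Ctrl (22.6-24.5), 21.9 FPKM in HM_DFX (20.9-22.8), 12.0 FPKM in LM_Ctrl (11.3-12.7) and 10.9 FPKM in LM_DFX (10.4-11.4). Both 4T1-HM libraries were above both 4T1-LM libraries. The plain ratio of HM to LM was 1.96 (1.83-2.10) without DFX and 2.01 (1.88-2.15) with it, and on the log2 scale of FPKM + 1 the differences were 0.92 and 0.94, just short of 2-fold. With median-ratio scaling the value under DFX was 1.02 and passed. For DFX the log2 values were -0.10 in 4T1-HM cells, which became 0.03 with median-ratio scaling, and -0.13 in 4T1-LM cells.

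Tgfbr2 (ENSMUSG00000032440, chromosome 9 from 116084293 to 116175360, minus strand), the receptor that binds the ligand, measured 24.6 FPKM in HM_Ctrl, 13.2 FPKM in HM_DFX, 27.4 FPKM in LM_Ctrl and 21.8 FPKM in LM_DFX. HM_DFX was the lowest library, and no pair of libraries compared here differed by 2-fold. The log2 difference for DFX was -0.84 in 4T1-HM cells, with a plain ratio of 0.539 (0.507-0.572), and -0.31 in 4T1-LM cells, with a ratio of 0.797 (0.761-0.834). The FPKM ratio of Tgfbr1 to Tgfbr2 was therefore 0.958 in HM_Ctrl and 1.65 in HM_DFX, against 0.437 in LM_Ctrl and 0.499 in LM_DFX. Type I receptor mRNA exceeded type II receptor mRNA in HM_DFX, whereas Tgfbr2 was the higher of the pair in both 4T1-LM libraries and, within overlapping intervals, in HM_Ctrl.

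The upstream windows of the receptor genes are printed because Tgfbr1 followed the clone and Tgfbr2 did not, with the same marks as above. The letters are those of the reference genome and were not read in either clone. Whether they bear on the clone difference was not tested.
Tgfbr1 (chr4:47352972-47353221, plus strand): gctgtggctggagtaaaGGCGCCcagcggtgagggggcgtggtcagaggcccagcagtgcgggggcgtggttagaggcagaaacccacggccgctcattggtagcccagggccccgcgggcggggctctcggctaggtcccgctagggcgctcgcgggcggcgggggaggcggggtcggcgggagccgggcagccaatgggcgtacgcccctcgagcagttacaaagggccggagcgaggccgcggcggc
Tgfbr2 (chr9:116175364-116175613, minus strand): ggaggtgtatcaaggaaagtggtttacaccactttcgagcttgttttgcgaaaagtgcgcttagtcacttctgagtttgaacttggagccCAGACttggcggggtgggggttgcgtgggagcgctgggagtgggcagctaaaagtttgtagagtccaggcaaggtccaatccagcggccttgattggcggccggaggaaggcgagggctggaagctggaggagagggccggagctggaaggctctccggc
Tgfbr1 held 1 GGCGCC and no CAGAC, and Tgfbr2 held 1 CAGAC and no GGCGCC. Neither window held ACGTG, and GC content was 74.8% for Tgfbr1 and 58.4% for Tgfbr2.

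Smad7 (ENSMUSG00000025880, chromosome 18 from 75367529 to 75395935, plus strand), the feedback inhibitor of the receptors, was counted at 14.6 FPKM in HM_Ctrl (13.8-15.5), 15.2 FPKM in HM_DFX (14.2-16.1), 15.1 FPKM in LM_Ctrl (14.2-16.0) and 21.6 FPKM in LM_DFX (20.7-22.6). The first 3 libraries have overlapping intervals and LM_DFX lies above them. The log2 difference for DFX was 0.05 in 4T1-HM cells and 0.49 in 4T1-LM cells, neither past 2-fold, with a plain ratio of 1.43 (1.33-1.54) in the latter. Smad7 is commonly read as a marker of active TGF-beta signaling, and its values with DFX were at or above the controls while those of Id1 and Id3 were below. What this means for signaling was not tested.

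Id1 (ENSMUSG00000042745, chromosome 2 from 152736251 to 152737410, plus strand), which keeps cells from differentiating by capturing E proteins, measured 17.2 FPKM in HM_Ctrl (335 fragments), 3.18 FPKM in HM_DFX (53 fragments), 15.8 FPKM in LM_Ctrl (289 fragments) and 2.13 FPKM in LM_DFX (54 fragments). Both DFX libraries lay far below both controls, and HM_DFX was above LM_DFX by 0.42 on the log2 scale, with limits of 1.00-2.23 for the plain ratio. Id1 fell by 2.13 on the log2 scale in 4T1-HM cells, 5.42-fold in plain FPKM (4.05-7.39), and by 2.43 in 4T1-LM cells, 7.44-fold (5.55-10.1). Of 12669 genes, 132 fell more in 4T1-HM cells and 60 fell more in 4T1-LM cells.

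Id3 (ENSMUSG00000007872, chromosome 4 from 136143497 to 136145755, plus strand), which acts redundantly with Id1 in blood vessel growth, had 21.3 FPKM in HM_Ctrl, 4.74 FPKM in HM_DFX, 16.3 FPKM in LM_Ctrl and 1.94 FPKM in LM_DFX. Again both DFX libraries were below both controls, with LM_DFX the lowest at 76 fragments. The log2 fall was -1.96 in 4T1-HM cells, 4.50-fold lower (3.70-5.51), and -2.56 in 4T1-LM cells, 8.40-fold lower (6.58-10.9), where 45 genes fell more. Between the clones the plain ratio of HM to LM was 1.31 (1.16-1.48) without DFX and 2.45 (1.82-3.30) with it. The latter is 0.97 on the log2 scale of FPKM + 1, short of the threshold, and it passed at 1.03 with median-ratio scaling and at 1.25 with a pseudocount of 0.1.

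Id2 (ENSMUSG00000020644, chromosome 12 from 25093801 to 25096092, minus strand), known in the mammary gland for its part in lobular development during pregnancy, separated the clones. Its values were 21.1 FPKM in HM_Ctrl (449 fragments), 11.6 FPKM in HM_DFX (211 fragments), 7.56 FPKM in LM_Ctrl (151 fragments) and 3.38 FPKM in LM_DFX (94 fragments). Both 4T1-HM libraries, treated or not, were above both 4T1-LM libraries. Id2 was higher in HM_Ctrl than in LM_Ctrl by 1.37 on the log2 scale, 2.79-fold in plain FPKM (2.32-3.38), and higher in HM_DFX than in LM_DFX by 1.52, 3.42-fold (2.67-4.41). Only 202 and 105 genes, respectively, were higher by a larger margin. For DFX the log2 differences were -0.82 in 4T1-HM cells and -0.97 in 4T1-LM cells, neither past 2-fold, although the latter became -1.14 with a pseudocount of 0.1.

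The upstream stretch of Id2, up to where annotated exons of any gene begin, is shown because Id2 separated the clones. These are again reference letters, not read in the clones, and a link to the clone difference was not tested.
Id2 (chr12:25096254-25096342, minus strand): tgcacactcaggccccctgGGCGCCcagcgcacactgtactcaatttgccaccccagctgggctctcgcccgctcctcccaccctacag
It carries 1 GGCGCC, in capitals, and its window of 250 bases held no CAGAC and no ACGTG. The E-box CANNTG, which E proteins bind and which contains ACGTG where it reads CACGTG, had 1 match for Id2 and 0 for Id3, while 66.2% of all windows held it. The window of Id3 held 2 copies of CAGAC and lies within annotated exons, so its letters are not printed. RefSeq windows were matched for 6 of the 9 genes, and none was matched for Id1 and Tgfb3.

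Summed over Id1, Id2 and Id3, the level was 59.7 FPKM in HM_Ctrl, 19.5 FPKM in HM_DFX, 39.7 FPKM in LM_Ctrl and 7.45 FPKM in LM_DFX. Id2 made up 35.4% of the sum in HM_Ctrl and 19.0% in LM_Ctrl, and 59.3% and 45.4% in HM_DFX and LM_DFX. The E proteins that Id proteins capture, encoded by Tcf3, Tcf4 and Tcf12, summed to 48.6 FPKM in HM_Ctrl, 30.9 FPKM in HM_DFX, 54.4 FPKM in LM_Ctrl and 35.3 FPKM in LM_DFX. The ratio of Id to E protein mRNA was thus 1.23 without and 0.630 with DFX in 4T1-HM cells, and 0.730 without and 0.211 with DFX in 4T1-LM cells. It was lower with DFX than without in both clones, and higher in 4T1-HM than in 4T1-LM cells under either condition. The lengths behind these FPKM were 27382 bases for Tcf4 and 15529 bases for Tcf12, against 1160 bases for Id1 and 1791 bases for Id3. The size of the ratio depends on these lengths, and Id4, given below, is not part of the Id sum.

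The order of the 9 levels changed with DFX. In HM_Ctrl, 8 genes lay between 14.5 FPKM (Tgfb1) and 24.6 FPKM (Tgfbr2), each with an interval that overlaps that of its neighbor in rank, and Tgfb2 stood apart below them. In HM_DFX, Tgfbr1 came first and Smad7 second, each apart from the next gene, Tgfbr2 and Id2 overlapped after them, and Tgfb1, Id3, Tgfb3, Id1 and Tgfb2 followed at the bottom with overlapping neighbors. In LM_Ctrl, Tgfbr2 led, Tgfb1, Tgfb3, Id3, Id1 and Smad7 followed with overlapping neighbors, and Tgfbr1, Id2 and Tgfb2 were each apart below. In LM_DFX, Tgfbr2 and Smad7 overlapped at the top, Tgfbr1 and Tgfb1 overlapped next, Tgfb3 stood apart, and Tgfb2, Id2, Id1 and Id3 overlapped in turn at the bottom.

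Counted over the 9 genes, 4 were called lower with DFX in 4T1-HM cells (Tgfb1, Tgfb3, Id1 and Id3) and 0 higher, where 12.4% of all 12669 genes were called lower and 6.93% higher. In 4T1-LM cells 3 were lower (Tgfb3, Id1 and Id3) and 0 higher, where 8.72% of all genes were lower and 7.09% higher. The median log2 change of the 9 genes was -0.84 in 4T1-HM cells and -0.75 in 4T1-LM cells, beside -0.10 and -0.04 over all genes. Median-ratio scaling moved the median of all genes in 4T1-HM cells from -0.10 to 0.00, and the split from 878 genes higher and 1568 lower to 1128 higher and 1277 lower. The values of the called genes under it were -1.31 for Tgfb1, -1.80 for Tgfb3, -2.01 for Id1 and -1.84 for Id3.

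Between the untreated clones, 1 gene of the 9 was higher in 4T1-HM cells (Id2) and 0 were lower, where 3.65% of all genes were higher and 3.15% lower, and the median of the 9 genes was 0.12 beside 0.01 over all genes. Under DFX, 1 was higher (Id2) and 1 lower (Tgfb1), where the shares of all genes were 3.31% and 5.05%. The DFX response of 4T1-HM cells differed from that of 4T1-LM cells by 2-fold in 0 of the 9 genes, against 3.52% of all genes higher and 5.38% lower. The widest gaps in response were -0.68 for Tgfb1 and 0.60 for Id3 on the log2 scale, so Tgfb1 went further down in 4T1-HM cells and Id3 further down in 4T1-LM cells, and neither gap was tested. The comparisons share libraries, HM_DFX and LM_DFX as well as HM_Ctrl and LM_Ctrl, and are not independent of each other.

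**Figure D3:**
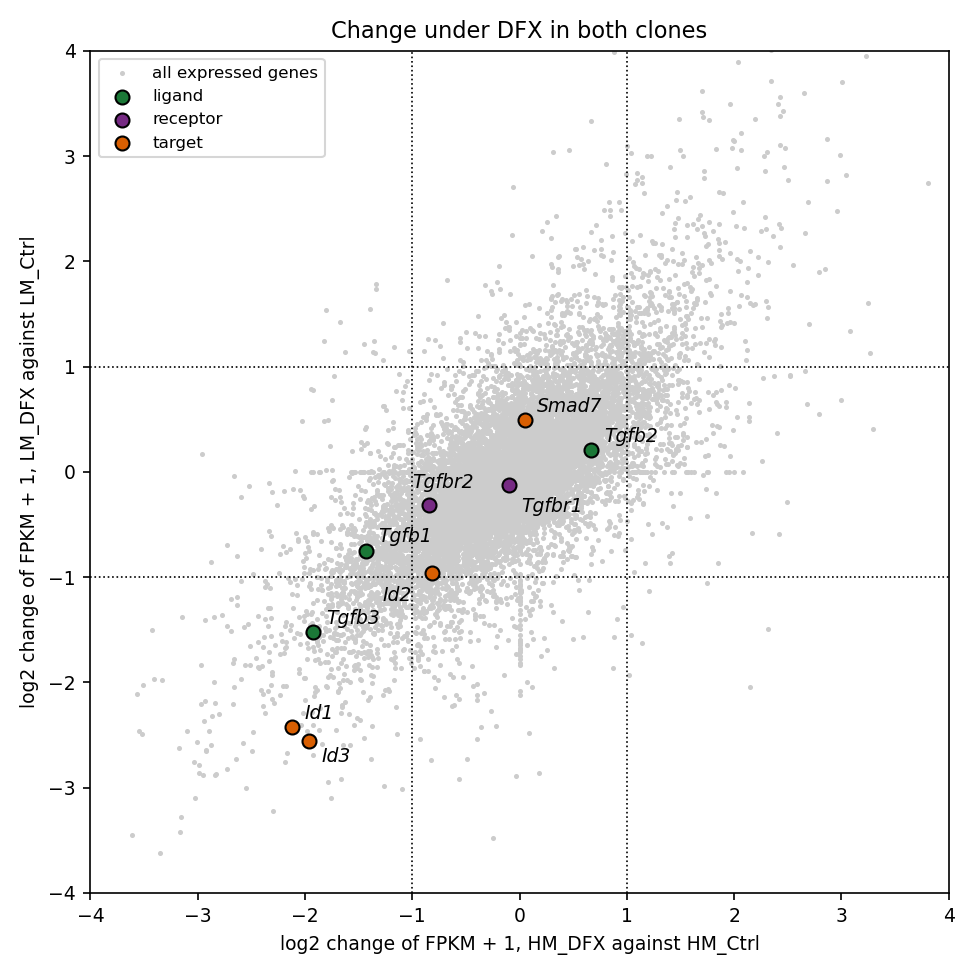
Log2 change of FPKM + 1 with DFX in 4T1-HM cells (x axis) and in 4T1-LM cells (y axis) for the 9 genes, in color by role, over the 12669 genes that reached 1 FPKM (gray); dotted lines mark 2-fold, and 29 genes lie outside the plotted range. Id1 at -2.13 and -2.43, Id3 at -1.96 and -2.56 and Tgfb3 at -1.92 and -1.52 sit in the lower left corner, and Tgfb2 and Smad7 are above 0 on both axes.

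The same libraries differed in other respects. The epithelial markers summed to 1487 FPKM in HM_Ctrl, 443 FPKM in HM_DFX, 2022 FPKM in LM_Ctrl and 921 FPKM in LM_DFX, with 4 of 4 called lower with DFX in 4T1-HM cells and 1 of 4, Krt8, in 4T1-LM cells, where 12.4% and 8.72% of all genes were lower. With median-ratio scaling Epcam and Cdh1 came short of 2-fold in 4T1-HM cells, at -0.87 and -0.93, and 2 of 4 were called. Whether this bears on the fall of Tgfb1, Tgfb3, Id1 and Id3 was not tested. Markers of the leukocyte and endothelial lists were at or near 0 in all libraries. Of the genes whose absence defines TNBC, Pgr was at 0, Esr1 reached at most 0.53 FPKM, and Erbb2 was at 12.5, 3.80, 11.8 and 4.71 FPKM in HM_Ctrl, HM_DFX, LM_Ctrl and LM_DFX.

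A further 78 genes of the pathway were listed by role, also with earlier results of these data known. Of these, 50 reached 1 FPKM in 1 or more libraries. With DFX, 8 were called higher and 10 lower in 4T1-HM cells, and 3 higher and 9 lower in 4T1-LM cells, with medians of -0.31 and -0.16. Over all genes the shares were 6.93% higher and 12.4% lower in 4T1-HM cells and 7.09% higher and 8.72% lower in 4T1-LM cells, with medians of -0.10 and -0.04, and the counts of the lists below are to be read beside these shares. Between the untreated clones, 2 were higher and 6 lower in 4T1-HM cells, where 3.65% of all genes were higher and 3.15% lower. Under DFX, 3 were higher in HM_DFX than in LM_DFX and 5 were lower, beside shares of all genes of 3.31% and 5.05%.

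Of 7 expressed genes of ligand latency and activation, 4 were called lower with DFX in 4T1-HM cells (median -1.59) and 2 in 4T1-LM cells (median -0.91), with 0 higher in either, where 12.4% and 8.72% of all genes were lower. Ltbp3, which secures secretion of the latent ligand, was at 112 FPKM in HM_Ctrl, 22.9 FPKM in HM_DFX, 57.3 FPKM in LM_Ctrl and 28.9 FPKM in LM_DFX, a fall of -2.25 on the log2 scale in 4T1-HM cells and a difference of -0.96 in 4T1-LM cells. Thbs1, a matrix protein that can activate latent TGF-beta, was at 109, 35.7, 241 and 48.0 FPKM in the same order and fell in both clones (-1.59 and -2.30), and it was lower in HM_Ctrl than in LM_Ctrl by -1.14.

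Ltbp2, which is a matrix protein of the family that does not itself bind the latent ligand, fell from 17.4 to 3.58 FPKM in 4T1-HM cells and from 30.9 to 4.41 FPKM in 4T1-LM cells. Ltbp4, a carrier of latent Tgfb1, fell from 25.5 to 7.55 FPKM in 4T1-HM cells (-1.63) and had 19.5 and 9.97 FPKM in 4T1-LM cells (-0.91). 

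Of 8 expressed co-receptors and BMP or activin receptors, 0 passed 2-fold with DFX in either clone on the log2 scale of FPKM + 1. In 4T1-LM cells, a pseudocount of 0.1 took Tgfbr3 (1.63) and the activin receptor gene Acvr2a (1.08) past it, with plain ratios of 4.76 (2.64-9.29) and 2.15 (1.88-2.46). Tgfbr3, encoding the co-receptor betaglycan that presents Tgfb2, was called higher in 4T1-HM than in 4T1-LM cells without DFX. It had 2.51 FPKM in HM_Ctrl and 1.68 FPKM in HM_DFX, but 0.126 FPKM in LM_Ctrl (13 fragments) and 0.600 FPKM in LM_DFX (86 fragments). The difference between the controls was 1.64 on the log2 scale of FPKM + 1, or 19.9-fold in plain FPKM (11.4-37.8). With DFX it was 0.74, short of 2-fold, with a plain ratio of 2.80 (2.14-3.68), and 1.35 with a pseudocount of 0.1.

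Among 6 other SMADs expressed, Smad1, a transducer of BMP signals, rose with DFX from 13.2 to 29.0 FPKM in 4T1-HM cells (1.08) and measured 6.31 and 13.5 FPKM in 4T1-LM cells (0.99, short of the threshold, and 1.03 with median-ratio scaling). Smad6, the inhibitory SMAD of the BMP branch and, as the Id genes, a known BMP target, fell from 2.46 to 0.485 FPKM in 4T1-LM cells (-1.22). In 4T1-HM cells Smad6 was at 1.21 and 0.413 FPKM, a difference of -0.65 on the log2 scale of FPKM + 1 that a pseudocount of 0.1 made -1.35, and 2.93-fold lower in plain FPKM (1.74-5.18). Smad2, Smad3 and Smad4, which carry the TGF-beta signal, stayed within 2-fold. Id4, the single expressed gene of 5 other BMP targets listed, was at 3.85 FPKM in HM_Ctrl, 1.38 FPKM in HM_DFX, 0.383 FPKM in LM_Ctrl and 0.358 FPKM in LM_DFX. Id4 was higher in HM_Ctrl than in LM_Ctrl by 1.81 on the log2 scale of FPKM + 1, 10.1-fold in plain FPKM (5.26-21.6). It fell by 1.02 with DFX in 4T1-HM cells, a call that median-ratio scaling ended at -0.93.

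Of 9 expressed feedback regulators and repressors, 3 were called higher and 0 lower in 4T1-HM cells (median -0.10), and 1 higher and 1 lower in 4T1-LM cells (median 0.07), where 6.93% and 7.09% of all genes were higher. Smurf1, a ubiquitin ligase that acts with Smad7 on the receptors, rose in both clones, from 36.1 to 74.7 FPKM in 4T1-HM cells and from 19.4 to 58.3 FPKM in 4T1-LM cells. Nedd4l, a ligase for activated SMADs, rose from 5.49 to 14.1 FPKM in 4T1-HM cells (1.22) and had 3.95 and 8.11 FPKM in 4T1-LM cells (0.88). Tgif2, a corepressor of SMADs, was at 2.65, 9.83, 5.36 and 10.1 FPKM in HM_Ctrl, HM_DFX, LM_Ctrl and LM_DFX, and its value is uncertain because 56.7% of its exon bases are shared with a gene on the opposite strand. Pmepa1, a target that feeds back on SMAD2 and SMAD3, fell in 4T1-LM cells from 45.2 to 20.1 FPKM (-1.13) and had 26.2 and 20.1 FPKM in 4T1-HM cells.

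Among the other ligands, Inhba, which encodes the activin A subunit, rose from 12.3 to 36.9 FPKM with DFX in 4T1-HM cells (1.51) and measured 16.1 and 19.4 FPKM in 4T1-LM cells. Bmp7 fell from 12.8 to 5.02 FPKM in 4T1-HM cells (-1.20) and stayed at 14.9 and 13.2 FPKM in 4T1-LM cells. For both genes the response differed by more than 2-fold between the clones, by 1.25 for Inhba and -1.04 for Bmp7 on the log2 scale, which was not tested, and the latter became -0.96 with median-ratio scaling.

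Of 3 expressed secreted antagonists, 2 were called lower in 4T1-HM than in 4T1-LM cells with and without DFX. The shares of all genes called lower were 5.05% with DFX and 3.15% without. Nbl1, a BMP antagonist, was at 2.09 FPKM in HM_Ctrl, 5.65 FPKM in HM_DFX, 14.1 FPKM in LM_Ctrl and 22.5 FPKM in LM_DFX, 6.78-fold lower in HM_Ctrl than in LM_Ctrl (5.27-8.83). Fstl3, an activin antagonist, had 4.57, 6.32, 18.9 and 26.6 FPKM in the same order, with 47.3% of its exon bases shared with Prss57 on the opposite strand. Twsg1, a modulator of BMP availability, fell in both clones with DFX, from 32.8 to 12.3 FPKM and from 42.7 to 18.5 FPKM.

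The SMAD3 target genes had calls in both directions. Of 9 expressed, 2 were higher and 2 lower with DFX in 4T1-HM cells, and 2 higher and 4 lower in 4T1-LM cells, beside shares of all genes of 6.93% and 12.4%, and of 7.09% and 8.72%. Between the untreated clones, 3 of them were lower in 4T1-HM cells, where 3.15% of all genes were lower. Ctgf, encoding a matrix-associated growth factor that YAP also controls, was at 22.9 FPKM in HM_Ctrl, 1.87 FPKM in HM_DFX, 103 FPKM in LM_Ctrl and 2.75 FPKM in LM_DFX. It fell 12.2-fold in 4T1-HM cells (9.68-15.6) and 37.4-fold in 4T1-LM cells (32.1-43.8), where 1 of the 12669 genes fell more on the log2 scale, and 23.2% of its exon bases are shared with Gm15270 on the opposite strand. In the opposite direction, Cdkn1a, the cell cycle inhibitor p21 that p53 also controls, rose from 14.1 to 84.5 FPKM and from 8.09 to 61.3 FPKM.

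Il11, a cytokine linked to bone metastasis, rose from 1.96 to 11.9 FPKM in 4T1-HM cells and from 0.727 to 5.02 FPKM in 4T1-LM cells. Tpm1, which encodes a tropomyosin of the actin cytoskeleton, was at 78.9 FPKM in HM_Ctrl, 39.8 FPKM in HM_DFX, 160 FPKM in LM_Ctrl and 48.2 FPKM in LM_DFX. Tpm1 was lower in HM_Ctrl than in LM_Ctrl by -1.01, which scaling to the 75th percentile made -0.98. It fell by 1.71 on the log2 scale in 4T1-LM cells and, at -0.97, came short of the threshold in 4T1-HM cells. Of the 3 E protein genes, Tcf4 fell from 6.89 to 1.64 FPKM in 4T1-HM cells (-1.58) and had 5.17 and 2.50 FPKM in 4T1-LM cells, and Tcf3 and Tcf12 stayed within 2-fold.

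**Figure D4:**
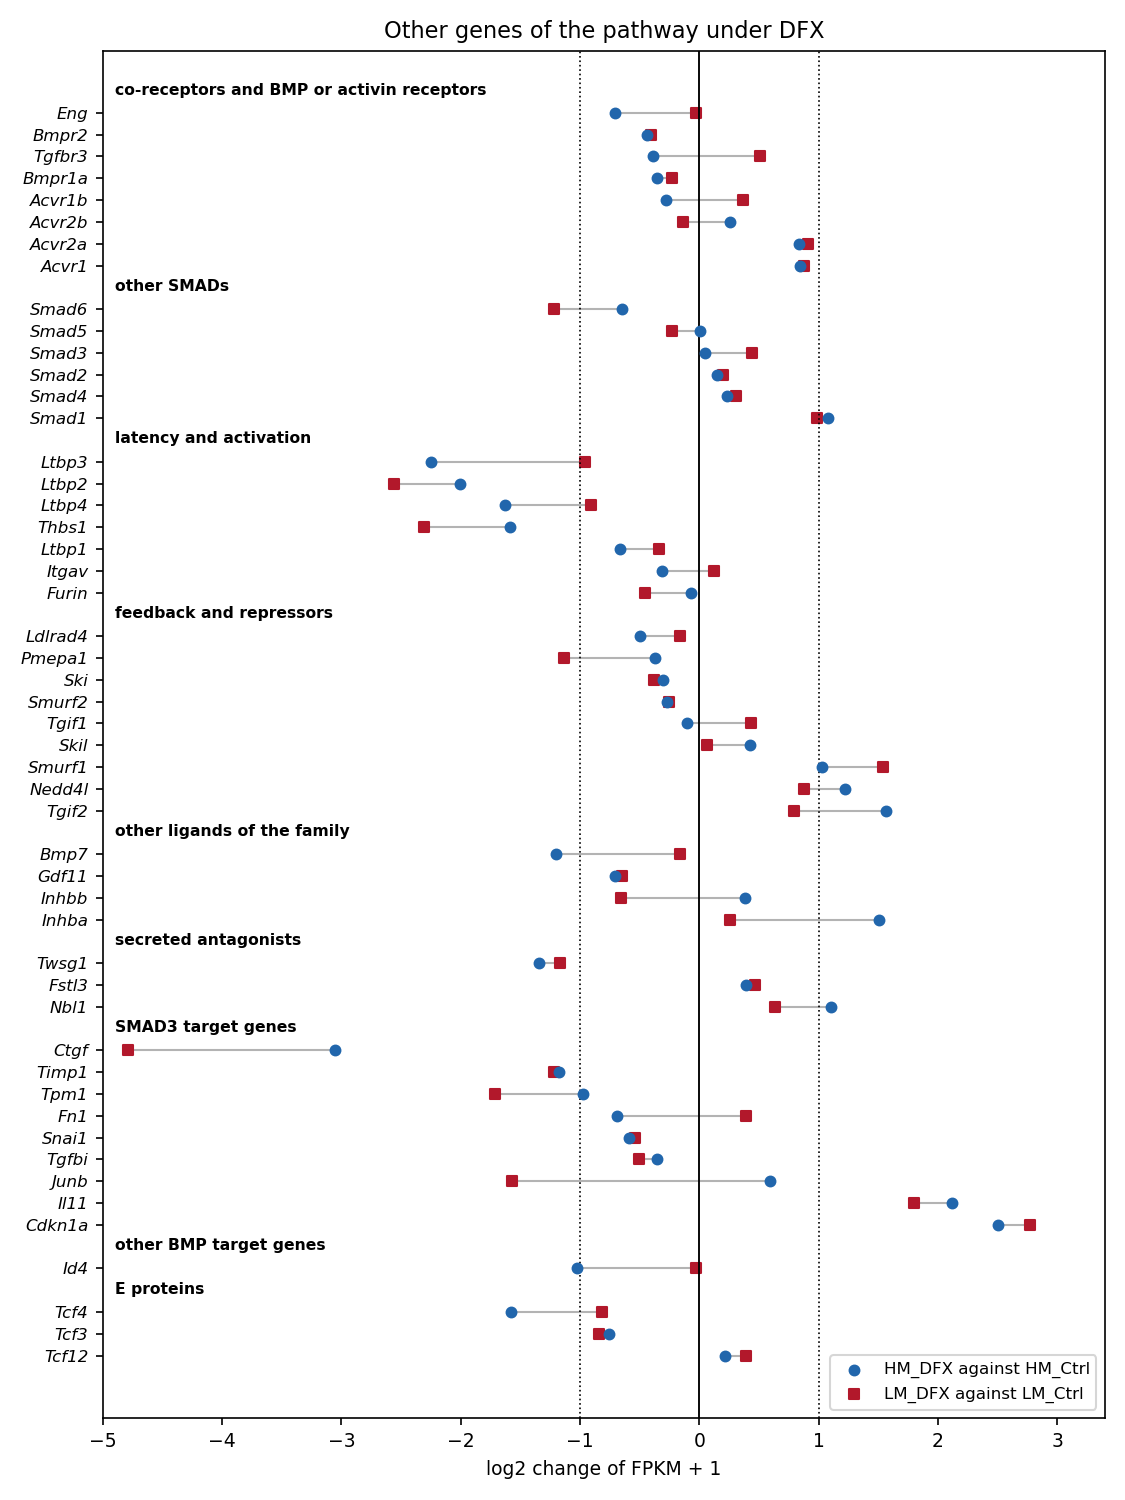
Log2 change of FPKM + 1 with DFX for the 50 other expressed genes of the pathway, grouped by role, in 4T1-HM cells (circles) and 4T1-LM cells (squares), each from 1 library per condition; dotted lines mark 2-fold. Ltbp2, Ltbp3, Ltbp4 and Thbs1 lie at the left in the latency group, and the SMAD3 targets spread from Ctgf at -3.05 and -4.79 to Cdkn1a at 2.50 and 2.78.

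Genes whose pattern over the 4 libraries was most like that of Tgfb1 and Id1 were found by the distance between log2 levels centered on each gene's mean, among 6294 protein-coding genes with at least 10 FPKM in their highest library. With 4 points per gene this is a description. The nearest to Tgfb1 were Tmem238 (distance 0.0734), Slc25a1 (0.113) and Tkfc (0.114), and of the other 8 genes followed here Tgfbr2 came closest, at rank 421. Nearest to Id1 were Fasn (0.297), which encodes fatty acid synthase, Idh1 (0.320) and Rnf145 (0.358). Fasn was at 124 FPKM in HM_Ctrl, 30.7 FPKM in HM_DFX, 100 FPKM in LM_Ctrl and 17.4 FPKM in LM_DFX. Id3 ranked 9 and Tgfb3 ranked 36 in likeness to Id1, while Id2 ranked 1228.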

How the data were processed

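RNA was sequenced as 4 libraries, 1 for each of HM_Ctrl, HM_DFX, LM_Ctrl and LM_DFX, grouped by their labels. The labels do not say how many cultures went into each library. The authors selected poly(A) RNA, made directional libraries and read them as 150-base pairs. Their processing notes name FastQC, Trimmomatic, HISAT2, featureCounts and build mm10. Versions, annotation release and strand setting are not given in the sources used here. The authors deposited FPKM for 49585 genes, low values included.

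Coordinates of 45128 genes equalled GENCODE M21. With its exon lengths, FPKM were turned back into fragments, which came out whole within 0.02 in all 4 libraries for 96.8% of 18236 genes. For Tgfb3 and Id2, the length was solved from their own values. The same was done for some listed genes and markers, among them Ltbp3, Nedd4l, Inhba, Cdkn1a, Il11 and Id4. Where several lengths gave whole fragments, the smallest was used. In the order above, the libraries totalled 16745608, 14363065, 15731521 and 21883855 fragments, and the median expressed gene held 531, 392, 483 and 674. Ratios of FPKM carry exact Clopper-Pearson and levels exact Poisson limits at 95%.

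Fold changes are log2 of the ratio of FPKM + 1. Genes that reached 1 FPKM in 1 or more libraries were kept (12669), and 2-fold was called. With 1 library per condition no test was run, and a count test was not applied. The members, lists and alternatives were chosen with earlier results of these data known. Alternatives were a pseudocount of 0.1, no filter, 1.5-fold, and scaling by median ratios or to the 75th percentile. Those for the lists and markers, and the percentile scaling of the 9 genes, were added after seeing the data.

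All 9 genes are named, with up to 4 genes past 2-fold per list by largest change (22 genes) and the 3 nearest profiles of Tgfb1 and Id1. Others were chosen after their values were seen. A listed gene is not reported here, and the list counts leave it out. Overlap with other genes was read from M21 exons. The calling was tried on simulated libraries with counting error alone and planted changes larger than 2-fold in well-expressed genes. That trial does not cover variation between cultures or changes near the threshold. Python 3.11.15, pandas 2.3.3, NumPy 2.4.6, SciPy 1.17.1 and matplotlib 3.10.9 were used.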

Additional observations from a re-analysis of the deposited data

Results flagged for a closer look

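For 7 listed genes of the pathway, none of them among the 9 genes followed, the value with DFX was above the control in one clone and below it in the other, with both counting intervals clear of no change. These differences between the clones rest on 1 library per condition and were not tested. They are given as the log2 change with DFX in 4T1-HM cells minus that in 4T1-LM cells.

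Junb, an AP-1 subunit induced by many signals, had the widest gap, at 2.16, with 70.6 and 107 FPKM in HM_Ctrl and HM_DFX and 137 and 45.3 FPKM in LM_Ctrl and LM_DFX. Fn1, fibronectin, differed by -1.09, with 461 and 285 FPKM in 4T1-HM cells and 271 and 357 FPKM in 4T1-LM cells. Inhbb, an activin subunit, differed by 1.04, with 1.43 and 2.18 FPKM against 3.79 and 2.04 FPKM. Tgfbr3 differed by -0.90, and its plain ratio was 0.670 (0.547-0.818) in 4T1-HM cells and 4.76 (2.64-9.29) in 4T1-LM cells, the latter from 13 and 86 fragments. Acvr1b differed by -0.65, Tgif1 by -0.54 and Itgav by -0.44. With median-ratio scaling the value of Tgif1 in 4T1-HM cells went from -0.10 to 0.03, so that it was above the control in both clones, and the difference of Fn1 in response came just short of 2-fold.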

How the results depend on the processing

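No called value of the 9 genes, the expressed listed genes, the epithelial markers or Erbb2 changed direction with a pseudocount of 0.1 or either scaling. At a 1.5-fold threshold, 2031 of the 12669 genes were higher and 3297 lower for DFX in 4T1-HM cells, and 2088 and 2528 in 4T1-LM cells. Between the untreated clones 1329 were higher and 1102 lower, and between the clones under DFX 1260 and 1848. Of the 9 genes, 1 was then higher and 6 lower for DFX in 4T1-HM cells, and 0 were higher and 5 lower in 4T1-LM cells. Between the untreated clones the counts were 2 higher and 1 lower, and under DFX 3 higher and 2 lower. Of the listed pathway genes, 11 were higher and 18 lower for DFX in 4T1-HM cells, and 9 higher and 15 lower in 4T1-LM cells. Between the untreated clones 8 of them were higher and 13 lower, and under DFX 7 were higher and 6 lower.

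With a pseudocount of 0.1, 1234 of the 12669 genes were higher and 2397 lower for DFX in 4T1-HM cells, and 1349 higher and 1721 lower in 4T1-LM cells. Between the untreated clones 883 were higher and 674 lower, and under DFX 810 and 1183. In the difference of responses the counts were 744 and 1325. Of the 9 genes, 1 was higher and 4 lower for DFX in 4T1-HM cells, and 0 were higher and 4 lower in 4T1-LM cells. Between the untreated clones 1 was higher and 1 lower, and under DFX 2 were higher and 1 lower. Of the listed genes, 8 were higher and 11 lower for DFX in 4T1-HM cells, and 7 higher and 11 lower in 4T1-LM cells. Between the untreated clones 4 of them were higher and 8 lower, and under DFX 5 were higher and 6 lower. Between the clones under DFX, median-ratio scaling gave 3 higher and 0 lower of the 9 genes. Of all 12669 genes, 496 were then higher and 563 lower. Scaling to the 75th percentile gave 1 higher and 0 lower of the 9 genes, where 450 of all genes were higher and 594 lower.

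The 1.5-fold and pseudocount counts differ by construction, and of the 9 genes, the scalings changed the calls of Tgfb1, Tgfbr1 and Id3. Among the listed genes and markers, median-ratio scaling ended calls of Id4, Epcam and Cdh1 for DFX in 4T1-HM cells, of Snai1 under DFX, and of the response differences of Bmp7 and Fn1, and it gave calls to Snai1 between the untreated clones and Smad1 for DFX in 4T1-LM cells. Scaling to the 75th percentile ended the call of Tpm1 between the untreated clones. With 1 library per condition, variation between cultures is unknown, and no library could be left out. No paired analysis was possible because the groups compared hold 1 library each and share fewer than 2 replicate numbers, and a fit with the clones as pairs, which would treat unlike clones as replicates, was not made. Among the 9 genes, counting error is widest for Id1, at 53 and 54 fragments with DFX.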
